A study of Mus musculus with 8 samples.

Results

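Ncam1, Ncam2, L1cam, Nrcam, Nfasc, Chl1, Cntn1, Cadm1 and Alcam encode cell adhesion molecules of the immunoglobulin superfamily that are best known from the nervous system. These 9 genes were taken by symbol from the 22056 genes of the count tables, and all 9 were found. Their transcripts were followed in single cells from allografts of the mouse line N2N1G, which models small cell lung cancer, a tumour of neuroendocrine cells. Every graft came from this 1 line and was started with the same number of cells, and tumours were taken after 3 weeks. The 2 brain and 3 subcutaneous grafts had been started by direct injection and the 3 liver grafts through the tail vein, so site and route cannot be told apart in comparisons with liver. The strain, sex and age of the host mice are not given in the sources used here, and neither treatment nor host genotype is named for any group. Libraries were made from sorted living cells with the 10x Genomics 3' method, which counts unique molecular identifiers (UMIs) near the 3' end of polyadenylated RNA. Nothing in the labels says whether the grafts of a site came from separate mice, and p-values then measure only the spread between these libraries. The title of the series asks about neuron-like behaviour of such tumours in the brain, and the question addressed here is whether these adhesion genes differed between the sites and between tumour and host cells.

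Adhesion molecules of this superfamily sit in the plasma membrane, bind each other or the matrix through immunoglobulin and fibronectin modules, and link neighbouring cells or axons. Ncam1, the neural cell adhesion molecule also known as CD56, is a standard marker of small cell lung cancer and carries polysialic acid, which weakens adhesion. L1cam, Nrcam, Nfasc and Chl1 form the L1 family, whose short cytoplasmic tails hold a site that binds ankyrin and so ties the membrane to the spectrin skeleton. Cntn1 is attached by a lipid anchor, Cadm1 acts at synapses and in epithelia, and Alcam binds CD6 on T cells as well as itself.

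The ankyrin-binding stretch of the L1 family is shown because it is the part these 4 members share. It was read from GENCODE M21 transcripts (assembly GRCm38), 57 coding bases in the last coding exon of each gene, with the 5 codons of the ankyrin-binding site in capitals. Letters run 5′ to 3′ on the strand of the gene.
L1cam: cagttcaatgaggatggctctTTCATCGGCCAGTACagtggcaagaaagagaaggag
Nrcam: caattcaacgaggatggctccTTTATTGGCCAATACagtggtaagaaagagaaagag
Nfasc: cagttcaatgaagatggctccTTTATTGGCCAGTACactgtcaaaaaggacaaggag
Chl1: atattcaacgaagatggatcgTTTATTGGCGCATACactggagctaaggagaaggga
These stretches lie at chrX:73855101-73855157 (minus strand) for L1cam, chr12:44598465-44598521 (plus) for Nrcam, chr1:132570486-132570542 (minus) for Nfasc and chr6:103729228-103729284 (plus) for Chl1. Nrcam shared 49 of the 57 bases with L1cam and Nfasc 48, while Chl1 shared 37. Of the 15 bases in capitals, 12 were the same in L1cam, Nrcam and Nfasc and 10 in all 4 genes. The 3' counts used here do not resolve this stretch within its exon and give 1 level per gene, not per splice form.

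On GRCm38 (GENCODE M21) all 9 are protein-coding genes. Ncam1 lies at chr9:49502136-49798925, Cadm1 on the same chromosome at chr9:47530173-47857637, Ncam2 at chr16:81200697-81626828 and Alcam at chr16:52248996-52454074. The L1 family genes lie at chrX:73853778-73896105 (L1cam), chr12:44328885-44601964 (Nrcam), chr1:132564690-132741797 (Nfasc) and chr6:103510586-103750211 (Chl1), and Cntn1 at chr15:92051165-92341967. L1cam overlaps the protein-coding genes Arhgap4 and Avpr2, 1 of them on its own strand, and Chl1 overlaps 6 other annotated genes, none protein-coding and 5 on its own strand. How the authors' counting shared reads between such genes is not given in the sources used here.

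Of 38460 deposited cells, 36797 were kept, with 500 or more genes detected and mitochondrial UMIs not above 10%. Tumour cells were the 34719 of these in which the eGFP reporter and Mycl together made up at least 0.2% of UMIs, and 2078 cells lay below that share. The tumour markers Chga and Syp, which the rule did not use, had UMIs in every library. Tumour cells gave 21689091 to 62047017 UMIs per library, the fewest in brain replicate 1, with a median of 7972 and 8409 UMIs per cell in the brain libraries against 9250 to 10542 elsewhere. Brain tumour cells also held more transcripts of host markers. The 8 oligodendrocyte markers summed to 199 to 264 CPM (a counts-per-million scale over all UMIs of the summed tumour cells) in brain, 74.2 to 75.1 in liver and 61.7 to 67.7 in subcutaneous libraries, where Mog and Ermn stood at 0 in all 6 libraries outside the brain. The 14 macrophage markers summed to 605.7 and 93.0 CPM in the brain libraries, 7.01 to 17.3 in liver and 2.498 to 47.9 in subcutaneous libraries, with none at 0. The 8 astrocyte markers summed to 65.7 to 88.8, 17.4 to 21.5 and 36.4 to 42.0 CPM in the same order, with 4 of the 8 at 0 in each liver library and 0 to 2 in the subcutaneous ones. Subcutaneous replicate 1 stood apart from the other subcutaneous libraries, with 10.3% of its tumour cells in clusters that consisted mostly of brain cells against 0.701% and 0.710%. Any 2 libraries shared 20 to 56 cell barcodes, 0.498% to 1.16% of the smaller one.

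All 9 genes were detected in the tumour cells of all 8 libraries. Since 3' UMIs count molecules and not fragments, levels of different genes are set side by side without a length correction. Reads lost to or gained from overlapping genes could still shift single levels, which was not tested. Their mean levels over the 8 libraries, in CPM of the summed tumour cell counts, fell into a wide range. Ncam1 was the most abundant at 233 CPM and made up 54.4% of all UMIs of the 9 genes. Cadm1 followed at 98.0 CPM and Alcam at 35.1. The L1 family lay together, with Nrcam at 17.0, L1cam at 16.5, Nfasc at 12.1 and Chl1 at 11.9 CPM. L1cam and Nrcam overlapped over the libraries, Nfasc (9.84 to 14.1) lay below both, and Chl1 overlapped with all 3. Cntn1 stood at 3.03 CPM and Ncam2, the olfactory relative of Ncam1, at 1.42, which is 30 to 93 UMIs per library. Ncam2 thus has the largest counting error of the list.

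The share of tumour cells with a UMI followed the same order. With every cell thinned to 3000 UMIs, Ncam1 was seen in 47.4% ± 6.29 (SD, n = 2) of brain, 41.5% ± 3.45 (n = 3) of liver and 50.2% ± 3.44 (n = 3) of subcutaneous tumour cells. Unthinned, these shares were 75.4%, 75.2% and 82.6%. Chl1 was seen in 2.07% ± 0.357, 3.51% ± 0.710 and 3.91% ± 0.509 of thinned cells and in 6.22%, 12.2% and 12.5% of unthinned ones. In host myeloid cells, defined below, an Ncam1 UMI was found in 2.19%, 2.84% and 6.06% of cells of the 3 libraries that held enough of them, at median depths of 3955, 3278 and 4880 UMIs, and no Chl1 UMI in any of them. Thinned, Chl1 was seen in 0 of 468, 0 of 118 and 0 of 65 myeloid cells, which by the limit of 3 counts allows shares of cells with a UMI at this depth of up to 0.641%, 2.54% and 4.62%, and Ncam1 in 1.07%, 3.39% and 1.54%. A thinned cell held at least 3 of the 9 genes in 3.22% to 7.16% of cells, and none of them in 25.9% to 41.3%.

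**Figure D1:**
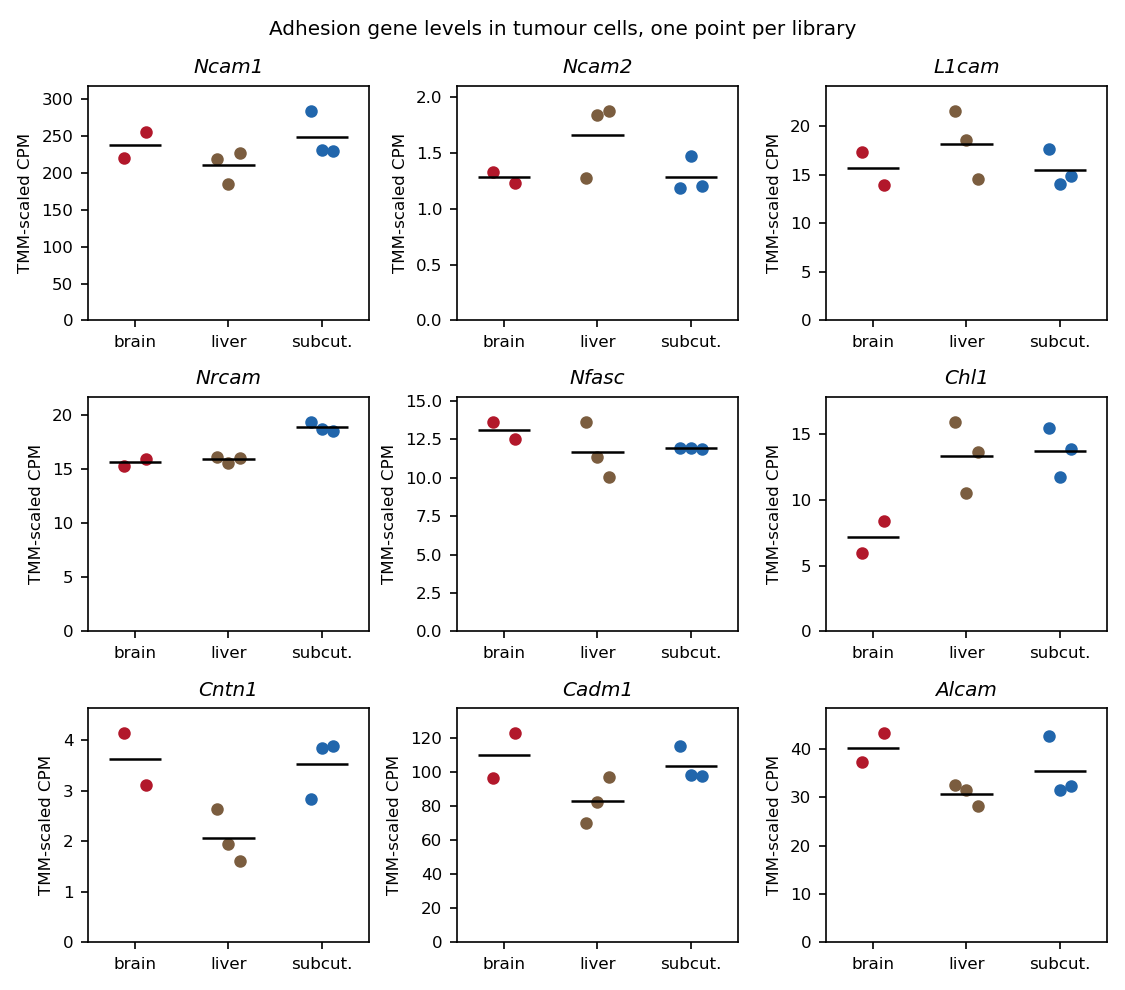
Level of each of the 9 genes in tumour cells (y axis, CPM scaled with TMM factors, starting at 0) by site (x axis), 1 point per library and a line at the mean. Chl1 lies lower in both brain libraries (5.97 and 8.38) than in the other 6 (10.6 to 15.9), and Nrcam is highest in the 3 subcutaneous libraries (18.5 to 19.3).

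For the comparison of sites, UMIs of tumour cells were summed per library, scaled with the trimmed mean of M-values (TMM) and tested over 13931 genes with edgeR's quasi-likelihood test, with p-values adjusted over all of them. All levels in the next paragraphs are CPM after that scaling. Of the 9 genes, 1 passed the threshold (adjusted p under 0.05) between brain and liver, where 21.8% of all genes tested passed it, 13.2% higher and 8.56% lower in brain. Again 1 of 9 passed between brain and subcutaneous tumour cells, against 15.1% of all genes (8.94% higher and 6.13% lower in brain), and 0 of 9 between liver and subcutaneous, against 2.83%. An unadjusted p under 0.05 was found for 4, 2 and 2 of the 9 in the 3 comparisons, in that order. The unadjusted shares over all genes are not given here, but they are no smaller than the adjusted shares above. DESeq2 gave 2, 1 and 0 calls for the 3 comparisons, again without the share over all genes, so neither set of counts is read as a result about the members. The gene past the threshold was Chl1 both times, and the other 8 were not called in any of the comparisons. The median log2 fold change of the 9 genes was 0.16 between brain and liver, 0.02 between brain and subcutaneous cells and -0.21 for liver against subcutaneous, against -0.01 to 0.00 over all genes tested. The comparisons share libraries and are not independent of each other.

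Chl1, the close homolog of L1 with roles in axon growth and neuronal positioning, was lower in brain tumour cells. Its level was 5.97 and 8.38 CPM in the brain libraries, 15.9, 10.6 and 13.7 in liver and 15.5, 11.8 and 13.9 in subcutaneous libraries. Both brain libraries lay below all 6 others, while liver and subcutaneous libraries overlapped. Chl1 was 1.85-fold lower in brain than in liver (log2 fold change -0.89, SE 0.219, 95% interval -1.38 to -0.40, adjusted p = 0.0203). Against subcutaneous tumour cells it was 1.90-fold lower (-0.93, SE 0.219, -1.42 to -0.43, adjusted p = 0.0248). Between liver and subcutaneous cells the difference was -0.04 (-0.45 to 0.38, adjusted p = 0.948). Of all genes tested, 3.45% were lower in brain in both comparisons at this threshold. In a bulk sum, fewer cells with a transcript and less RNA per cell cannot be told apart.

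The Chl1 call was lost under several alternatives. Without the clusters made up mostly of brain cells, described further on, the difference was -0.35 against liver and -0.41 against subcutaneous cells (adjusted p = 0.341 and 0.288). With the replicate number as a block the adjusted p was 0.0522 and 0.0596, and with only the sites compared in the fit it was 0.0544 against subcutaneous cells. Without brain replicate 1, the library with the lowest value, the difference was -0.66 against liver (adjusted p = 0.141) and -0.70 against subcutaneous cells (adjusted p = 0.158). It also missed the threshold without liver replicate 1 (adjusted p = 0.0616, brain against liver). Against subcutaneous cells it missed it without brain replicate 2 (0.0516) or subcutaneous replicate 3 (0.0702). Brain cells were shallower and fewer of them were free of host marker UMIs (5.13% and 15.6%, against 28% to 36.6%). With cells thinned to 3000 UMIs the differences were -0.85 and -0.88, and in cells without any host marker UMI they were -1.40 and -1.56. Within non-cycling cells they were -0.99 and -1.09.

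Nrcam, an L1 family member of nodes of Ranvier and axon guidance, had its highest levels in subcutaneous tumours. It stood at 15.3 and 15.9 CPM in the brain libraries, 16.1, 15.5 and 16.0 in liver and 19.3, 18.7 and 18.5 in subcutaneous libraries, so the subcutaneous libraries lay above all others. The differences did not pass the threshold, at -0.27 for brain against subcutaneous (SE 0.0983, adjusted p = 0.0947) and -0.25 for liver against subcutaneous (SE 0.0865, adjusted p = 0.174). In non-cycling cells the difference between brain and subcutaneous was -0.52 (adjusted p = 0.0198), past the threshold, as it was in thinned cells (-0.47, adjusted p = 0.0472). Only these 2 of 24 alternatives passed. Without the clusters made up mostly of brain cells the sign changed, to 0.093. Between brain and liver the main fit gave -0.03 (-0.25 to 0.20).

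L1cam, which metastatic cells are known to use to spread along brain capillaries, overlapped between all sites. It measured 17.4 and 14.0 CPM in the brain libraries, 21.6, 18.6 and 14.5 in liver and 17.6, 14.02 and 14.9 in subcutaneous libraries. The difference between brain and liver was -0.22 (95% interval -0.64 to 0.20) and that between brain and subcutaneous 0.02 (-0.40 to 0.43). Nfasc, neurofascin, the L1 family protein of the axon initial segment, stood at 13.6 and 12.6 CPM in the brain libraries, 13.6, 11.4 and 10.1 in liver and 11.97, 11.96 and 11.86 in subcutaneous libraries. Brain libraries lay above the subcutaneous ones by a small step, with a difference of 0.13 (-0.19 to 0.45, adjusted p = 0.565).

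Ncam1 stood at 221 and 256 CPM in the brain libraries, 219, 185 and 228 in liver tumours and 284, 231 and 230 in subcutaneous libraries. Liver libraries lay just below subcutaneous ones, by -0.24 (-0.51 to 0.03, adjusted p = 0.335), and brain overlapped with both. Ncam2 measured 1.34 and 1.23 CPM in the brain libraries, 1.27, 1.84 and 1.88 in liver and 1.19, 1.47 and 1.205 in subcutaneous libraries, which overlapped. Its intervals were wide, -0.997 to 0.25 for brain against liver.

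Cntn1, contactin 1, a partner of L1 family members and of Ptprz1 at the cell surface, was at its lowest in liver tumours. It measured 4.14 and 3.12 CPM in the brain libraries, 2.64, 1.95 and 1.61 in liver and 2.84, 3.84 and 3.89 in subcutaneous libraries, so that liver overlapped with neither site. The difference was 0.81 for brain against liver (0.21 to 1.40, adjusted p = 0.0573) and -0.77 for liver against subcutaneous (-1.30 to -0.24, adjusted p = 0.123). With DESeq2 the first of these had an adjusted p of 0.0438.

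Cadm1, a synaptic and epithelial adhesion molecule, measured 96.6 and 123 CPM in the brain libraries, 70.3, 82.6 and 96.9 in liver and 115, 98.2 and 97.4 in subcutaneous libraries. Brain and liver ranges met, and the difference of 0.40 had an adjusted p of 0.0976. Alcam stood at 37.3 and 43.3 CPM in the brain libraries, 32.6, 31.6 and 28.2 in liver and 42.8, 31.5 and 32.3 in subcutaneous libraries. Brain lay above liver by 0.39 (0.05 to 0.73, adjusted p = 0.0924), and the highest subcutaneous library overlapped with brain. Without that library, subcutaneous replicate 1, Alcam was past the threshold against liver (adjusted p = 0.0160) and against subcutaneous cells (0.34, adjusted p = 0.0421), and Cntn1 was past it for brain against liver (adjusted p = 0.0227) and liver against subcutaneous (adjusted p = 0.0370).

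Counting libraries alone, 3 of the 9 genes did not overlap between brain and liver (Chl1, Cntn1, Alcam), where 53.7% of all genes tested did not. For brain against subcutaneous the count was 3 (Nrcam, Nfasc, Chl1), against 47.1% of all genes. For liver against subcutaneous it was 4 (Ncam1, Nrcam, Cntn1, Cadm1), against 24.9%. This count depended on the scaling. In CPM without TMM factors it was 7 between brain and liver, where 53.2% of all genes did not overlap, 3 between brain and subcutaneous cells (46.8%) and 5 for liver against subcutaneous (27.7%). Separation of this kind was thus common among all genes.

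**Figure D2:**
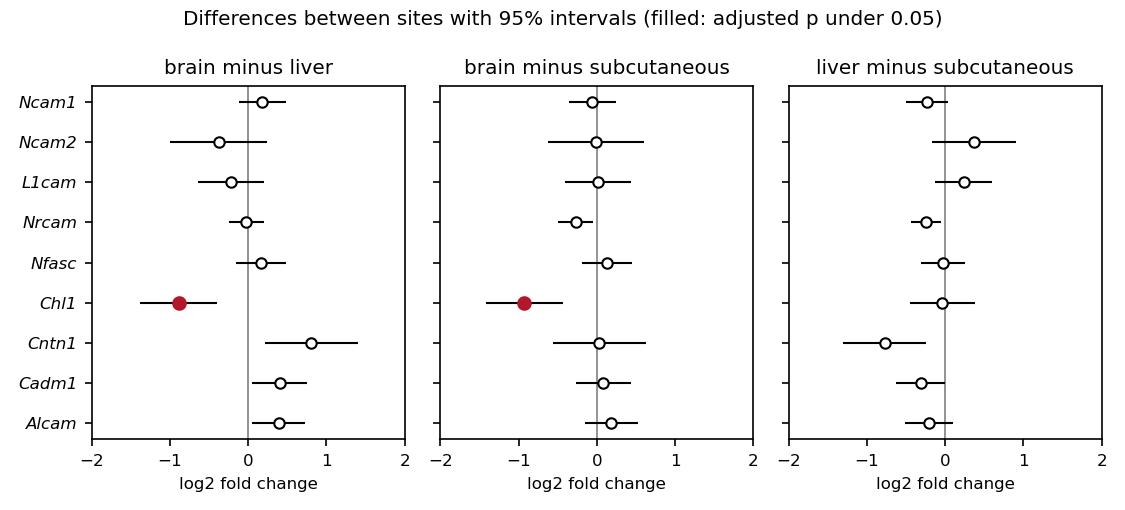
Log2 fold change (x axis) of each gene (y axis) in the 3 comparisons of sites, with 95% intervals from edgeR and filled points for an adjusted p under 0.05. Only Chl1 is filled, at -0.89 against liver and -0.93 against subcutaneous tumour cells.

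The pathway around these molecules was examined in lists of 90 further genes. Among 32 other neural immunoglobulin adhesion genes, 29 were tested. In brain against liver 6 were higher and 4 lower, in brain against subcutaneous 2 and 2, and in liver against subcutaneous 0 and 1. Over all genes tested the shares were 13.2% higher and 8.56% lower in brain against liver, 8.94% and 6.13% against subcutaneous, and 0.933% and 1.9% in liver against subcutaneous, and the counts of the lists that follow stand beside the same shares. Cadm2, a synaptic relative of Cadm1, stood at 10.8 ± 0.781 CPM (SD, n = 2) in brain, 2.895 ± 0.336 (n = 3) in liver and 5.73 ± 2.16 (n = 3) in subcutaneous cells, and was higher in brain against both (log2 fold change 1.90, adjusted p = 0.00237, and 0.92, adjusted p = 0.0442). Bsg, basigin, was lower in brain than in subcutaneous cells, at 399 ± 7.43 against 769.99 ± 158 CPM (-0.95, adjusted p = 0.00662). It was also lower in liver, at 463 ± 14.4 CPM, than in subcutaneous cells (-0.74, adjusted p = 0.0271), while brain and liver differed by -0.21 (adjusted p = 0.336). Lsamp, the limbic system-associated membrane protein, was higher in brain than in liver (0.90, adjusted p = 0.0260) and Thy1, an axonal surface glycoprotein, lower (-1.02, adjusted p = 0.0202). The median log2 fold change of the 29 was 0.26, -0.04 and -0.18 in the 3 comparisons.

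Of 21 extracellular partners, 15 were tested. In brain against liver 7 were higher and 2 lower, where 13.2% and 8.56% of all genes were, with a median log2 fold change of 1.08 against 0.00 over all genes. In brain against subcutaneous 3 were higher and 2 lower, against 8.94% and 6.13%. Ptprz1, the receptor phosphatase that binds Cntn1 and Nrcam, stood at 14.4 ± 2.13 CPM in brain grafts, 6.83 ± 0.993 in liver and 8.05 ± 0.219 in subcutaneous cells and was higher in brain against both (1.08, adjusted p = 0.00272, and 0.84, adjusted p = 0.0109). Prnp, the prion protein, which binds Ncam1, stood at 67.0 ± 8.85, 29.8 ± 4.97 and 39.6 ± 4.44 CPM and was likewise higher in brain (1.17 and 0.76, adjusted p = 0.00204 and 0.0155). Nrp1, a semaphorin co-receptor that joins L1cam and Chl1, was higher in brain than in liver (2.24, adjusted p = 0.00217) and lower in liver than in subcutaneous cells (-1.67, adjusted p = 0.0229). Agrn, the proteoglycan agrin, was lower in brain than at both other sites (-1.24 and -0.84, adjusted p = 0.003997 and 0.0244). Several of these partners are also transcribed by glia, whose markers were higher in brain tumour cells, and the part of host RNA in these values was not tested.

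All 19 cytoskeletal anchors and adaptors were tested. In brain against liver 4 were higher and 2 lower, against 13.2% and 8.56% of all genes, and in brain against subcutaneous 4 and 1, against 8.94% and 6.13%. Ank2, ankyrin B, which binds the stretch printed above, stood at 11.3 ± 1.28 CPM in brain grafts, 6.59 ± 0.932 in liver and 6.94 ± 0.349 in subcutaneous cells (0.77 and 0.69, adjusted p = 0.00929 and 0.0198). The other ankyrins, named after their values were seen, did not share 1 pattern: Ank1 was higher in brain (2.88 and 1.91, adjusted p = 0.00199 and 0.0119), while Ank3 differed by -0.29 and -0.20 (adjusted p = 0.252 and 0.475). Gap43, a growth cone protein, stood at 165 ± 27.1, 59.1 ± 9.004 and 102 ± 21.5 CPM (1.48 and 0.70, adjusted p = 0.00164 and 0.0355). Moesin (Msn), which ties membrane proteins to actin, was higher in brain too (0.84 and 1.52), and Fyn, a kinase that signals from Ncam1, was lower (-0.54 and -0.64, adjusted p = 0.0104 and 0.00888). Of the 6 enzymes that add polysialic acid or the HNK-1 epitope, 1 was higher in brain than in liver and none passed in the other comparisons. Of 12 cleaving enzymes 10 were tested, with 2 higher in brain against liver and 1 against subcutaneous, where 13.2% and 8.94% of all genes were higher. The single glycan enzyme was St8sia2, a polysialyltransferase of Ncam1 at 2.46 ± 1.33, 0.351 ± 0.216 and 1.83 ± 1.85 CPM, and the cleaving enzymes were Mmp14 in both comparisons and Plat in the first, all named after their values were seen.

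Over the 8 libraries, some genes followed a member closely. By Pearson correlation of log2(CPM + 1) among tested genes of at least 10 CPM, the most alike for Chl1 were Mtus2 (r = 0.96), Scyl2 (0.96) and Ephb6 (0.95). For Nrcam they were Etaa1 (0.99), Ube2g2 (0.98) and Kif5b (0.98), and for Cntn1 Mynn (0.97), Azi2 (0.96) and Mfsd5 (0.95). For Ncam1 they were Phf20l1 (0.97), Nexmif (0.96) and Rif1 (0.96), and for Ncam2 Flii (0.89), Vps72 (0.87) and Mybbp1a (0.85). L1cam was closest to Pacs2 (0.98), Sox12 (0.98) and Scrib (0.97), and Nfasc to Cacna2d2 (0.94), Epb41l2 (0.93) and Ncan (0.93). Cadm1 was closest to Rtf1 (0.98), Smc4 (0.98) and Ccdc25 (0.98), and Alcam to Nudt9 (0.98), Pop7 (0.97) and Ahi1 (0.97). Each is the top of 7941 or 7942 genes over only 8 libraries that also share their sites and differ in depth, so such values are a description. Among the members themselves, the highest value was 0.84 for Ncam1 with Cadm1 and the lowest -0.80 for Ncam2 with Nfasc.

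Tumour and host cells of the same library were compared next. Host myeloid cells were taken as cells below the tumour share in which macrophage markers made up at least 1% of UMIs. At least 50 such cells were present in brain replicate 1 (729), brain replicate 2 (211) and subcutaneous replicate 1 (99), and the other libraries were not used here. Levels in this and the following paragraphs are CPM without TMM scaling, and ratios over the group are unscaled too. Fold changes from the fit include TMM scaling and can differ from the ratios of these levels. The test kept the library as a block, had 2 residual degrees of freedom and covered 12818 genes, of which 58.7% passed the threshold, 33.7% higher and 25% lower in tumour cells. Of the 9 genes 6 passed, all higher in tumour cells. Free RNA can carry tumour transcripts into other droplets. In myeloid cells the eGFP level was 1.85%, 1.66% and 2.52% of that in tumour cells of the same library, a level that the rule for these cells itself limits. Chga, a tumour marker outside the rule, stood at 5.76%, 5.56% and 4.83%, and shares of the 9 genes at or below this are read as background.

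Ncam1 stood at 228, 263 and 293 CPM in tumour cells against 6.04, 7.41 and 11.1 in myeloid cells of brain replicate 1, brain replicate 2 and subcutaneous replicate 1. In the fit it was 24.8-fold higher in tumour cells (log2 fold change 4.63, SE 0.216, adjusted p = 1.04e-05). The ratios of its unscaled levels were 37.8, 35.5 and 26.3 in the same libraries. Its level in myeloid cells was 2.64% to 3.80% of that in tumour cells, from 32 UMIs, and lay below the share of Chga in each library. Chl1 had no UMI in any of the 3 myeloid sums. Over the group this puts it at least 17.3-fold higher in tumour cells against a floor of 3 UMIs, and the exact 95% interval of the ratio starts at 14.0 (adjusted p = 0.00447). Ncam2 also had none, at least 1.98-fold higher in tumour cells against the same floor with an interval from 1.59, and did not pass (adjusted p = 0.0701).

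Nfasc had 2 myeloid UMIs and Cntn1 also 2. Over the group, the ratio of tumour to myeloid level was 30.1 for Nfasc (95% interval 8.32 to 249) and 7.74 for Cntn1 (2.13 to 64.2), both intervals covering counting error only. Both passed the threshold (adjusted p = 0.00134 and 0.0368). Nrcam stood at 15.8, 16.4 and 19.9 CPM in tumour cells and at 0.604, 6.17 and 5.56 in myeloid cells, 4.67-fold lower there in the fit (adjusted p = 0.0223). L1cam stood at 18.03, 14.3 and 18.2 CPM in tumour cells and at 1.51, 2.47 and 11.1 in myeloid cells, a 3.73-fold difference in the fit (adjusted p = 0.0324). These levels rest on 13 myeloid UMIs of L1cam and 10 of Nrcam. L1cam in myeloid cells stood at 8.37%, 17.2% and 61.2% of its tumour level, above the share of Chga in each library. Nrcam stood at 3.82%, 37.8% and 27.9%, above that share in brain replicate 2 and subcutaneous replicate 1 only. Without brain replicate 1 the count of genes past the threshold was 3, and L1cam (adjusted p = 0.288), Nrcam (0.171) and Cntn1 (0.441) were no longer among them. Without brain replicate 2, L1cam (0.153) and Cntn1 (0.0784) missed it.

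Cadm1 and Alcam also had myeloid levels well above the share of Chga in each library, from more UMIs than L1cam or Nrcam. Cadm1 stood at 154, 141 and 68.5 CPM in myeloid cells against 100.05, 126 and 119 in tumour cells of the same 3 libraries, from 661 UMIs, which is 154%, 112% and 57.7% of the tumour level. Myeloid cells were higher than tumour cells in both brain libraries and lower in the subcutaneous one, and the fitted difference was -0.48 (-1.10 to 0.15, adjusted p = 0.155). A Cadm1 UMI was found in 37.7%, 32.2% and 20.2% of myeloid cells. Alcam stood at 12.1, 7.41 and 46.3 CPM in myeloid cells against 38.6, 44.5 and 44.1 in tumour cells. This was 31.2%, 16.7% and 105% of the tumour level, from 71 myeloid UMIs, and the fitted difference of 0.82 had an interval of -0.60 to 2.25. Without subcutaneous replicate 1, both genes passed the threshold, Cadm1 at -0.79 and Alcam at 1.51.

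**Figure D3:**
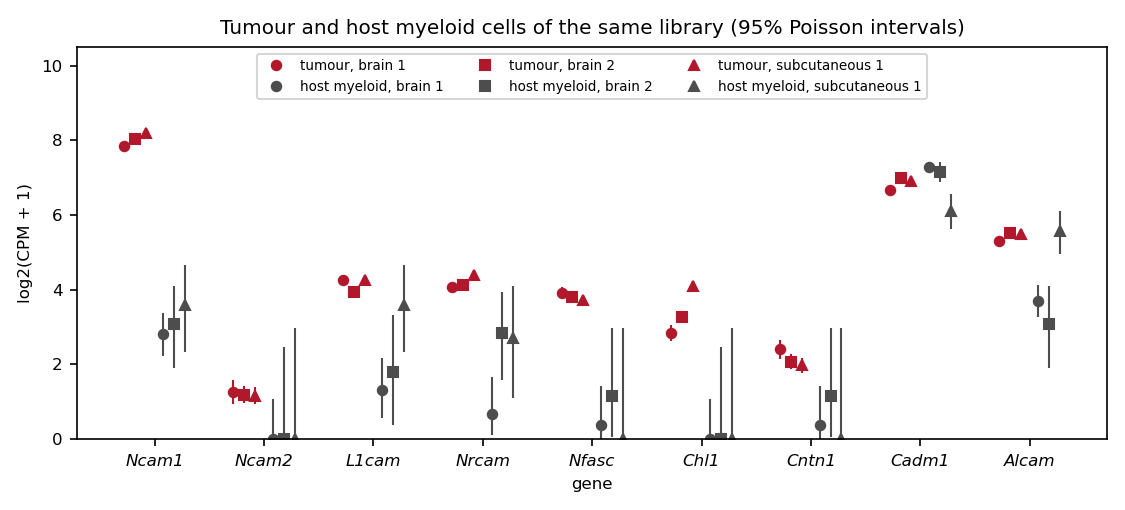
Level of each gene (x axis) as log2(CPM + 1) (y axis) in tumour cells (red) and host myeloid cells (grey) of the 3 libraries with at least 50 myeloid cells, with 95% Poisson intervals of the counts. Cadm1 is higher in myeloid than in tumour cells in both brain libraries (154 and 141 against 100.05 and 126 CPM) and lower in subcutaneous replicate 1 (68.5 against 119), Alcam reaches the tumour level only in subcutaneous replicate 1, and Chl1 and Ncam2 have no UMI in myeloid cells.

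The 2078 cells below the tumour share formed 22 clusters. Clusters were named from fixed marker lists, and the 9 genes took no part in forming them. Of these cells 515 (24.8%) lay in clusters named tumour-like and are not counted as host. With few cells a cluster and no more than 8 libraries behind them, the levels that follow are descriptions, with exact Poisson intervals for counting error.

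Among neural host cells, the 26 oligodendrocyte-like cells, all from brain grafts, held Ncam1 at 504 CPM (396 to 633) and Nfasc at 157 CPM (99.3 to 235). Nfasc was thus far above the tumour mean of 12.1 CPM, and Ncam2 stood at 40.9 CPM. The 43 astrocyte-like cells of the brain grafts held Ncam1 at 485 CPM (371 to 623), Cadm1 at 326 (234 to 442), Cntn1 at 159 (97.2 to 246) and Nrcam at 119 (66.8 to 197). Their Chl1 level was 31.8 CPM (8.67 to 81.4) from 4 UMIs. Intervals lay above the tumour mean for Ncam1 in both glial clusters, and for Nfasc and Ncam2 in oligodendrocyte-like cells. In astrocyte-like cells they also did so for Cadm1, Cntn1 and Nrcam. Oligodendrocyte-like cells had no UMI of Cntn1 or Nrcam. Nfasc in astrocyte-like cells rested on 2 UMIs (15.9 CPM, 1.93 to 57.5). No cluster was named neuron-like.

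Myeloid clusters differed mainly in Cadm1 and Alcam. The largest macrophage-like cluster (286 cells, all from brain grafts), led by the microglial genes Tmem119 and P2ry12, held Cadm1 at 199.7 CPM (176 to 226) and Alcam at 0.789. A macrophage-like cluster of 72 cells led by Spp1 and by the stress and inflammatory genes Osm, Ccl4 and Il1a held Cadm1 at 276 CPM (236 to 321). In the macrophage-like cluster led by Ly6c2 (221 cells) Cadm1 stood at 42.6 CPM (32.7 to 54.6) and Alcam at 30.9 (22.6 to 41.4). An unnamed cluster of 195 cells led by Cd209a had Alcam at 64.4 CPM (52.2 to 78.7) and Cadm1 at 67.1. Of the cells in this last cluster 96 and 49 came from the brain libraries and 28 from subcutaneous replicate 1.

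Among stromal cells, the 70 fibroblast-like cells of subcutaneous replicate 1 held Nrcam at 64.6 CPM (38.3 to 102) and Cadm1 at 3.59. Endothelial-like cells (82) held Cadm1 at 97.0 CPM (65.9 to 138). L1cam had at most 9 UMIs in any cluster outside those named tumour-like, in the 36 dendritic-like cells (46.6 CPM, 21.3 to 88.5).

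**Figure D4:**
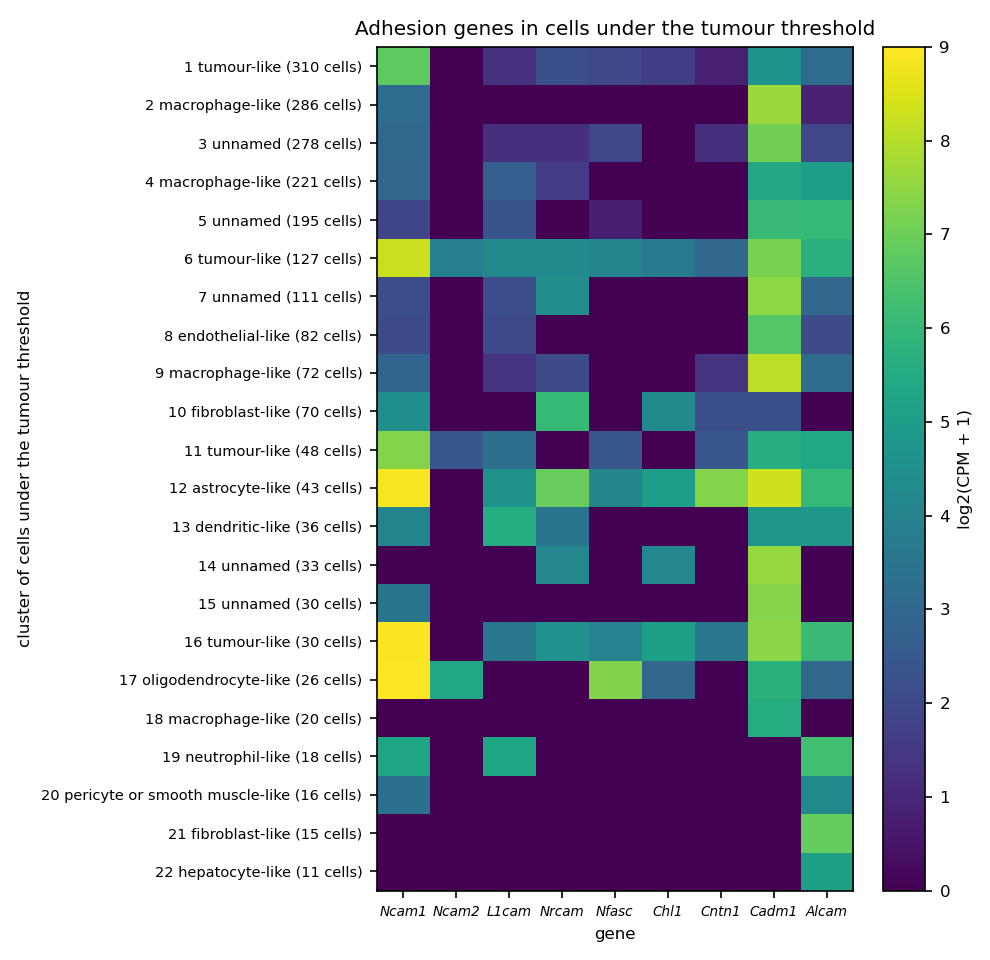
Level of each gene (columns, colour as log2(CPM + 1)) in the 22 clusters of cells below the tumour share (rows, with cell numbers). Ncam1 is bright in the tumour-like, astrocyte-like and oligodendrocyte-like rows, and Cadm1 in most myeloid rows.

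Tumour cells were also clustered on their own, again without the 9 genes among the variable genes, which gave 23 clusters. Ncam1 ranged from 86.9 CPM in cluster 2 to 462 in cluster 19, with medians of 1552 and 1374 detected genes per cell. Cluster 2 had few tumour markers, but clusters 22 and 23, with equally few, held Ncam1 at 407 and 399 CPM. Cluster 2 also held the lowest Cadm1 (44.8), Alcam (15.2), Nfasc (3.24) and L1cam (1.78 CPM). Cluster 19, of 229 cells with a median of 2400 UMIs and 7.77% mitochondrial UMIs (1.87% to 3.41% in the other clusters), held the highest Ncam1, Cadm1 (264), Nrcam (40.1), L1cam (35.1) and Nfasc (26.7). Chl1 had another order. It was lowest in cluster 9 at 2.40 CPM and highest in cluster 11 at 23.9. In the 9 clusters with Mki67, a marker of dividing cells, at 50 CPM or more, the median Chl1 level was 18.7 CPM (8.24 to 23.9), and in the other 14 it was 8.24 (2.40 to 20.2). The same medians were 236 and 251 CPM for Ncam1 and 14.5 and 15.1 for Nrcam. A higher median in the clusters with more Mki67 was not particular to Chl1. It was also found for Cntn1 (3.81 against 2.75 CPM), Ncam2, Cadm1, Alcam and, by a small step, L1cam, while Nfasc was lower there. That split was chosen after the levels had been seen.

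Some clusters consisted mostly of brain cells. Clusters 9, 13, 14 and 20 consisted of at least 50% brain cells and held 51.9% and 50.2% of the tumour cells of the brain libraries, 0.267% to 0.572% of those in liver and 0.701% to 10.3% of those in subcutaneous libraries. Of these, cluster 9 was the lowest of all 23 in Chl1, while clusters 13, 14 and 20 (8.15, 9.10 and 8.24 CPM) lay near the median of 9.10 CPM. In brain cells Chl1 stood at 1.85 CPM in cluster 9 (1.19 to 2.76), 7.38 in cluster 13 and 5.85 in cluster 14 (4.27 to 7.83). The subcutaneous cells of clusters 9 and 14 had 5.35 CPM (2.85 to 9.14) and 22.4 CPM (15.9 to 30.6). Without these 4 clusters, an alternative chosen after seeing the data, the difference was -0.35 against liver (adjusted p = 0.341) and -0.41 against subcutaneous cells (adjusted p = 0.288). Cluster 20, of 132 cells, was led by the macrophage genes Cd74, C1qa and Lyz2, and without it alone the differences were -0.89 and -0.93.

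In the 12 clusters with at least 50 cells of each site, pooled brain cells had less Chl1 than cells of both other sites in 8 clusters and more than both in 1. Among the 8, only in cluster 7 was the interval of brain cells apart from those of both other sites, and in the rest it overlapped with at least 1 of them. In that cluster, led by the mitotic genes Prc1 and Plk1, Chl1 stood at 10.7 CPM in brain (7.53 to 14.7), 22.7 in liver (19.6 to 26.1) and 23.8 in subcutaneous cells (21.7 to 26.1). In cluster 3, which is among the 8, it stood at 11.3, 11.9 and 11.8 CPM, which did not differ beyond counting error. The same count was 0 of 12 for Cadm1, 1 for Alcam, 1 for Nrcam and 5 for Ncam1, with brain above both other sites in 7, 9, 5 and 5 clusters. For Nfasc, Ncam2, L1cam and Cntn1 it was 6, 4, 3 and 3, with brain above both in 4, 5, 5 and 7. Cells of 1 library are not replicates, and these counts carry no test.

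**Figure D5:**
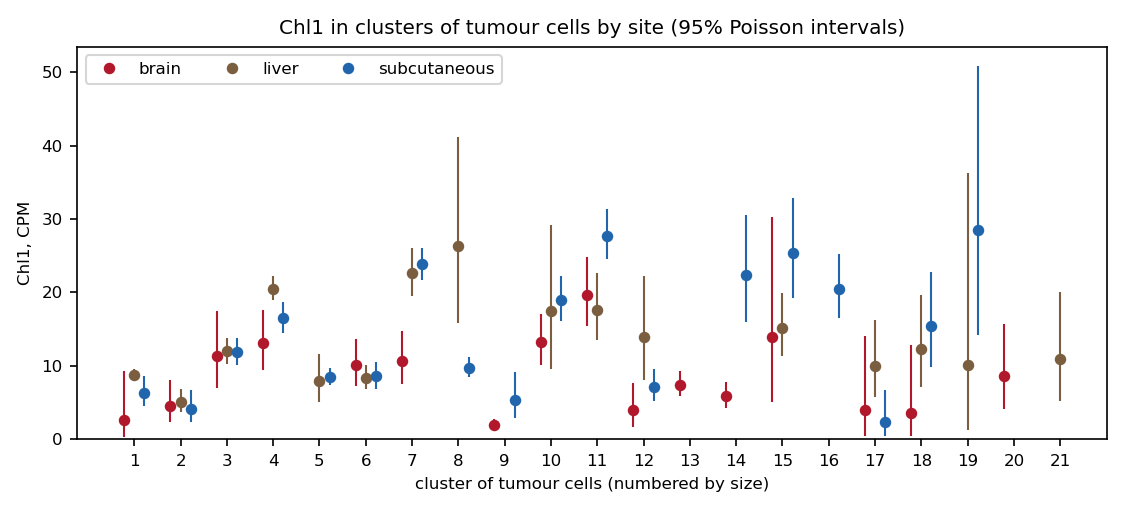
Chl1 level in CPM (y axis) in each cluster of tumour cells (x axis, by number) for brain (red), liver (brown) and subcutaneous (blue) cells pooled over libraries, where a site had at least 50 cells, with 95% Poisson intervals. Brain cells are low in cluster 9 (1.85 CPM) and in cluster 7 (10.7 against 22.7 and 23.8), and level with the others in cluster 3.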

How the data were processed

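Each library came as a matrix of UMI counts, which the authors deposited with gene and barcode lists, and per the file headers it was written by Cell Ranger 3.0.0. The submitters' processing notes name Cell Ranger, STAR and the build mm10. The lowest deposited cell had 501 UMIs, so barcodes had been filtered before deposit. No doublet caller was run.

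Kept cells had 500 or more genes and mitochondrial UMIs not above 10%, and 2669 of these (7.25%) lay between 0.1% and 0.4% of eGFP and Mycl UMIs, near the threshold of 0.2%. Counts were summed per library and tested in R 4.3.3 with edgeR 4.0.16 (TMM, filterByExpr, robust quasi-likelihood, Benjamini-Hochberg), with 1 mean per site over 8 libraries and 5 residual degrees of freedom. The biological coefficient of variation was 17.9% in this fit and 26.7% in the fit of tumour against myeloid cells. Genes left out of the test held 0.0133% of UMIs. The TMM factors ran from 0.937 to 1.04. Standard errors were taken as the fold change (log2) divided by the root of F. Cells were clustered by Leiden (igraph 0.11.9, resolution 1) on a graph of 15 neighbours in 30 principal components of 2000 variable genes, with the 9 members left out. A cluster name needed at least 3 markers detected in 20% of its cells, and no other list with more markers among the genes leading the cluster. Clusters much shallower than their libraries and without a marker of the list among those leading genes were also left unnamed. Some clusters thus stayed unnamed although macrophage markers were detected in them. Intervals of counts are exact Poisson, and those of shares exact Clopper-Pearson, at 95%. Intervals and floors cover counting error only.

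On simulated data with 200 of 13588 genes changed 2-fold in brain, 85.5% were recovered in each brain comparison, with 5.52% false calls against liver and 2.29% against subcutaneous. The simulated comparison with myeloid cells recovered 100% of 200 genes changed 4-fold out of 12466, with 4.76% false calls. Both simulations were set to less spread between libraries than the real fits had (17.9% and 26.7%), most so for myeloid cells. The changed genes were drawn only from those above a minimum level. These rates can therefore be better than those in the real data. Ncam2, L1cam, Nrcam, Nfasc, Chl1 and Cntn1 rested on 0 to 13 myeloid UMIs in the real data. Recovery was not given separately for genes this low, so it does not measure the power of their tests.

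Members, gene lists, markers and tests were chosen with earlier results of these data known. From each list, up to 4 genes past the threshold in any comparison with a mean of at least 5 CPM are named, by the largest fold change, and for each member the 3 genes most alike over libraries. Alternatives covered DESeq2 1.42.0, RLE factors, gene and cell filters, thinning, equal cell numbers, a replicate block, fits of the sites compared only and leaving out each library.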

Additional observations from a re-analysis of the deposited data

Results flagged for a closer look

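The log2 ratio of unscaled tumour to host myeloid levels had opposite signs in brain and subcutaneous libraries for 2 of the 9 genes. For Cadm1 the log2 ratio was -0.62 in brain replicate 1 and -0.16 in brain replicate 2, and 0.79 in subcutaneous replicate 1. For Alcam it was 1.68 and 2.59 in the brain libraries and -0.07 in subcutaneous replicate 1, which is level within counting error (46.3 CPM in myeloid cells, 95% interval 29.96 to 68.3, against 44.1 in tumour cells). The difference between sites was not tested, since only 1 subcutaneous library held at least 50 myeloid cells. The myeloid cells of that library are of other clusters in part: of its 99 myeloid cells none lay in the Tmem119-led cluster, which held 286 cells of brain grafts only.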

How the results depend on the processing

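Among alternative values of single genes, 662 kept their direction and side of the threshold, 17 passed it newly, 18 no longer passed and 41 changed sign. The count of genes past the threshold between brain and liver was 1, and became 2 with DESeq2, with all deposited cells and with cells thinned to 3000 UMIs, 3 in non-cycling cells and with only the sites compared in the fit, and 0 without the clusters mostly of brain cells. Leaving out 1 library gave 0 (without brain replicate 1) to 3 (without subcutaneous replicate 1). Between brain and subcutaneous it was 1, and became 2 with thinned and with non-cycling cells, and 0 with only the sites compared (Chl1 adjusted p = 0.0544) and without the clusters mostly of brain cells. Leaving out 1 library gave 0 (without brain replicate 1, brain replicate 2 or subcutaneous replicate 3) to 2 (without subcutaneous replicate 1). Between liver and subcutaneous it was 0, and 0 to 1 with 1 library left out. For tumour against myeloid cells it was 6, and 3 (without brain replicate 1) to 8 (without subcutaneous replicate 1) with 1 library left out. Other settings gave 4 (myeloid threshold at 2%) to 7 (no replicate block, which here is the library), and Cntn1 passed in 6 of 10 settings. Where a site was left with 1 library, that library was assumed to vary like the others. Shares over all genes are not given for the alternatives, so these counts show only how the calls moved. The cause of these changes was not tested.

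The fit with a replicate block gave 0 calls between brain and liver (Chl1 -0.84, adjusted p = 0.0522) and 0 between brain and subcutaneous (Chl1 -0.88, adjusted p = 0.0596). Deviations from the site mean correlated at -0.24 to 0.24 between libraries of different sites with the same number. Brain and subcutaneous libraries gave 0.24 and 0.22, and brain and liver libraries -0.14 and -0.16. With 2 brain libraries these deviations are mirror images of each other, so the check cannot exclude a pairing. The number was not used as a pairing in the main fit.

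No value that changed sign was past the threshold. Without the clusters mostly of brain cells these were, for brain against liver, L1cam at 0.12, Nrcam at 0.38 and Nfasc at -0.22, and for brain against subcutaneous Ncam1 at 0.090, Ncam2 at 0.28, Nrcam at 0.093 and Nfasc at -0.24. With 1 library left out, values went from -0.062 to 0.020 for Nrcam between brain and liver. Between brain and subcutaneous they went from -0.17 to 0.056 for Ncam1, -0.065 to 0.11 for Ncam2, -0.14 to 0.17 for L1cam, -0.17 to 0.23 for Cntn1 and -0.096 to 0.26 for Cadm1. Between liver and subcutaneous they went from -0.14 to 0.069 for Nfasc and -0.17 to 0.12 for Chl1. Other settings for brain against subcutaneous gave Ncam2 0.0015 with RLE factors, 0.011 with the tumour threshold at 0.1%, 0.074 with all deposited cells, 0.022 with the replicate block and 0.0056 without the macrophage-led cluster. They gave L1cam -0.0031 without a filter on low genes, -0.045 without the 5% of cells richest in UMIs, -0.011 thinned, -0.26 in non-cycling cells, -0.42 in cells without host markers and -0.076 with the block. They gave Cntn1 -0.015, -0.086, -0.47, -0.066 and -0.025 in the same order from the richest cells on, and Nfasc -0.21 thinned. For liver against subcutaneous, Chl1 was 0.019 with the tumour threshold at 0.4% and 0.026 with equal cell numbers, and Nfasc 0.0033 without the clusters of fewest tumour markers.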
